A study of Homo sapiens with 22 samples.

Results

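HNRNPA1, HNRNPA2B1, HNRNPA3, HNRNPC, HNRNPD, HNRNPDL, HNRNPH1, HNRNPK, HNRNPM and HNRNPU encode heterogeneous nuclear ribonucleoproteins (hnRNPs), and their transcripts were followed in RNA bound by PSF. PSF, also called SFPQ, is a nuclear RNA-binding protein with roles in splicing and transcription. The genes were taken by symbol, as 10 of 20239 genes with exonic counts, with 36 RefSeq transcript rows and 132 introns. Of those introns, 110 hold no base of an exon in the listed RefSeq rows and are used for single-intron results.

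In RIP-seq, an antibody to PSF pulls down the protein with its RNA, which is then sequenced beside the input RNA of the same cells; 3 lines from human prostate cancer were profiled this way. LNCaP and 22Rv1 were grown in RPMI with fetal bovine serum, and LTAD, a name the labels do not spell out, in 10% charcoal/dextran-treated serum without phenol red. Each line spent 3 days in phenol-red-free medium with 2.5% charcoal/dextran serum and then received ethanol vehicle or 10 nM dihydrotestosterone (DHT), the ligand of the androgen receptor, for 24 h. Each of the 6 combinations of line and treatment gave 1 input library and 1 PSF-RIP library, 12 in all. LNCaP also gave 4 peak lists from crosslinking and immunoprecipitation (CLIP, ultraviolet light at 150 mJ/cm2), 2 per treatment. RIP libraries were made with Agilent SureSelect RNA target enrichment, and no immunoprecipitation with a control antibody was analysed here. No label says that libraries came from separate cultures, so the p-values measure only the spread between these libraries.

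hnRNPs coat newly made RNA in the nucleus and steer its splicing, export and decay. Several of them limit their own amount: the protein acts on its own transcript, often by changing the splicing of an exon or of an intron in the 3′ untranslated region (UTR), so that the transcript is retained or degraded. A stop codon that lies well upstream of a splice junction marks a transcript for nonsense-mediated decay, while introns just behind the stop codon usually do not.

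Introns directly behind the stop codon had the 4 highest values of PSF-RIP over input among the members' tested introns. An intron can be tested through its PSF-RIP reads alone, so this order describes the tested introns only. The lowest of the 4, HNRNPA1 at 1.71 ± 0.28 (SE), was not separated from an HNRNPH1 intron between coding exons at 1.70 ± 0.20. HNRNPA1, HNRNPA2B1, HNRNPA3 and HNRNPD each have a last intron in the 3′ UTR that begins 4, 21, 15 and 30 bases after the stop codon, and all 4 were higher in PSF-RIP than in input, by 1.71 to 2.06 on the log2 scale. HNRNPDL has a 3′ UTR intron of the same kind, whose downstream portion was higher by 1.62. HNRNPH1 differed in kind. Its own intron directly behind the stop codon (chr5:179041961-179042546) held 5 reads in the inputs and 13 in PSF-RIP, too few to test, while 4 of its introns between coding exons were higher, the highest at chr5:179048399-179050037 (hg19). HNRNPC went the other way, with its lowest intron, at chr14:21699232-21702111, at -1.92. The last 30 bases of these introns are given because the polypyrimidine tract and the terminal ag of an intron are read by the splicing machinery there. They were read from the GRCh37/hg19 genome on the gene's strand, 5′ to 3′, and capitals mark the longest unbroken run of pyrimidines.
HNRNPA1 (chr12:54678303-54678332): ttaacaactttaTTCCatattgttcaacag
HNRNPA2B1 (chr7:26231959-26231988): TTTTTTTactctttacttctgttgaaacag
HNRNPA3 (chr2:178084106-178084135): ataaTTTTTTTatcctgtattattcaacag
HNRNPD (chr4:83275308-83275337): tgacttctaTTTTTTCTTCTTTgtctccag
HNRNPDL (chr4:83346037-83346066): atctaactggtattttgtttttgTTTTTag
HNRNPH1 (chr5:179048399-179048428): attctgtattaacggttgTTTTCTTTCCag
HNRNPC (chr14:21699232-21699261): gtcattaacatttttacttttgTTTTTCag

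The pyrimidine runs spanned 4 bases in HNRNPA1, 7 in HNRNPA2B1 and HNRNPA3, 13 in HNRNPD, 5 in HNRNPDL, 10 in HNRNPH1 and 6 in HNRNPC. Pyrimidines made up 60% of the HNRNPA1 tail and 80% of the HNRNPD tail, with the other 5 between. Among the other introns named below, the run ranged from 3 bases in introns of HNRNPK and HNRNPU that were higher in PSF-RIP to 19 in the HNRNPM intron that was lower. Run length did not follow direction throughout. It was 16 in the HNRNPA2B1 intron at chr7:26237487-26240191, which was higher, and 10 in the HNRNPC intron at chr14:21681277-21698477, which was lower.

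One stretch of HNRNPH1 lies under a CLIP peak found in all 4 lists. It holds a coding exon and bases of the 2 introns beside it, both higher in PSF-RIP. Both readouts meet there, as they do in the 3′ UTR intron of HNRNPA2B1. Only the HNRNPH1 stretch is printed, because shared intervals with UTR bases were left out. The 300 bases at chr5:179046119-179046418 are printed on the gene's minus strand, with the 139-base coding exon (179046270 to 179046408) in capitals, and their GC content is 43%.
HNRNPH1 CLIP window: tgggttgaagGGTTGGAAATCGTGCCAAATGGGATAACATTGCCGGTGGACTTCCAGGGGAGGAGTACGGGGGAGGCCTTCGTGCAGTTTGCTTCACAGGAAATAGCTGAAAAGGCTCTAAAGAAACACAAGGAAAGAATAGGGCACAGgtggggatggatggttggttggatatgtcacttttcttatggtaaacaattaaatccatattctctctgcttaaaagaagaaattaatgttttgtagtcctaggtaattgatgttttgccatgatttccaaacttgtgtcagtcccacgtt

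Input libraries held 1073228 to 3014049 mapped reads and PSF-RIP libraries 4641602 to 10439461, so the inputs limit the precision of each comparison. All 7 luminal prostate markers were detected in each line, basal markers summed to at most 1.62 CPM (counts per 1e+06 exonic reads after TMM scaling of the library size), and neuroendocrine markers summed to 88.5 to 95.6 CPM in the 22Rv1 inputs against 1.20 to 5.67 elsewhere. Most of the 22Rv1 sum was SYP (79.9 and 88.0 CPM, vehicle and DHT), with CHGA at 8.54 and 7.62. INSM1 had no reads in any input. Among the luminal markers, KLK3 in LTAD rested on 2 and 13 input reads (vehicle and DHT). Stromal or leukocyte markers summed to 7.93 to 18.1 CPM, in LNCaP and LTAD from COL1A1 alone. The share of all counted reads that lay in introns ranged from 10.3% to 15.1% in inputs and from 11.5% to 20.9% in PSF-RIP. It was higher in PSF-RIP in 6 of 6 pairs and lower after DHT in 6 of 6 line and assay combinations. Both assays of a line share cells, so these combinations are not independent. The part of this share in the members' intronic results was not tested.

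Levels per length in the inputs ordered the members over a wide range. HNRNPA2B1 had the highest level at 169 ± 52.7 CPM per kb (SD, n = 6), and HNRNPA3 the lowest at 10.4 ± 2.70. Between them came HNRNPD at 91.0 ± 31.9, HNRNPH1 at 88.7 ± 16.3, HNRNPC at 60.2 ± 9.71 and HNRNPM at 59.5 ± 15.2 CPM per kb. HNRNPK followed at 44.7 ± 10.3, HNRNPU at 41.6 ± 6.44, HNRNPA1 at 32.7 ± 13.5 and HNRNPDL at 25.1 ± 6.08. Neighbours in this order with overlapping ranges of mean ± SD were HNRNPA2B1 and HNRNPD, HNRNPD and HNRNPH1, and HNRNPC and HNRNPM. The same held for HNRNPM and HNRNPK, HNRNPK and HNRNPU, HNRNPU and HNRNPA1, and HNRNPA1 and HNRNPDL. In bulk libraries, fewer expressing cells and less RNA per cell cannot be told apart. The libraries were made with target enrichment, so the order of genes may also reflect capture, which was not tested. The HNRNPA1 level leaves out reads beyond the end of its RefSeq mRNA rows at 54679030. The levels of HNRNPA1, HNRNPC, HNRNPA3 and HNRNPK may miss reads, because the counts hold uniquely mapped reads and the genome holds 5, 5, 4 and 3 near-copies of their transcripts (at least 90% identity), up to 97.4% identical.

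In exonic reads, 8 of the 10 genes were higher in PSF-RIP than in input and none was lower. Over all 13368 genes tested, 58% passed the same threshold (adjusted p under 0.05, edgeR quasi-likelihood test), 30.5% higher and 27.5% lower. The members' median log2 difference was 0.61 against 0.05 over all genes. HNRNPDL, a relative of HNRNPD, stood highest, and HNRNPA1 and HNRNPC did not pass. The plot of input and PSF-RIP levels shows each of the 6 pairs.

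**Figure D1:**
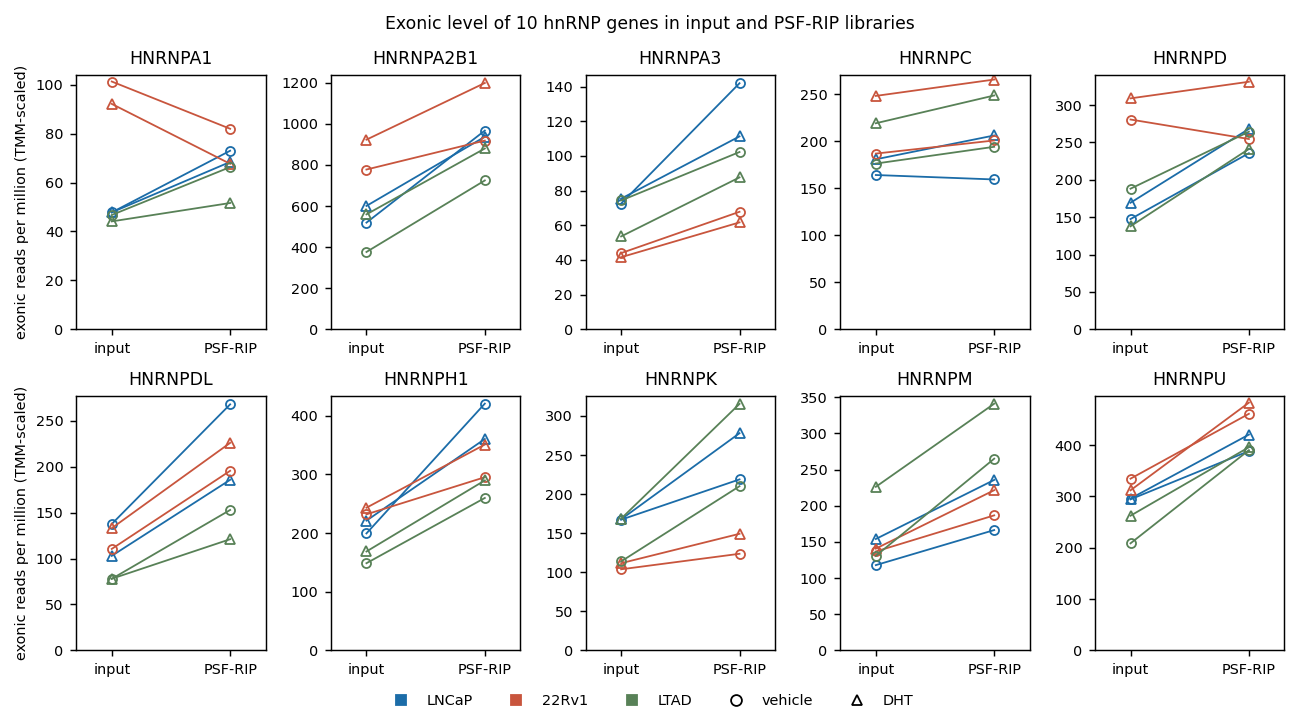
Exonic level of each gene in CPM (linear axis) in the input and the PSF-RIP library of the same line and treatment, joined by a line. Colour marks the cell line, circles vehicle and triangles DHT. HNRNPH1 runs from 149 to 243 CPM in input and from 259.8 to 421 in PSF-RIP, while HNRNPA1 is lower in PSF-RIP in both 22Rv1 pairs and higher in the other 4.

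Among the A/B-type regulators of splice-site choice, HNRNPA2B1 ranged from 376 to 923 CPM in input and from 724 to 1199 in PSF-RIP, with a log2 difference of 0.62 ± 0.10 (SE) and an adjusted p of 2.21e-05 (edgeR). HNRNPA3 ranged from 41.6 to 75.4 CPM in input and from 61.7 to 142 in PSF-RIP, a difference of 0.66 ± 0.10 (adjusted p = 5.98e-06). Both were higher in 6 of 6 pairs, although their ranges over all lines overlapped between assays. HNRNPA1, a repressor of splice sites and their best-known relative, had an input minimum, median and maximum of 44.1, 47.8 and 101 CPM, and in PSF-RIP of 51.6, 68.0 and 82.0. Its log2 difference was 0.61 and 0.51 in LNCaP (vehicle and DHT), 0.50 and 0.22 in LTAD, and -0.30 and -0.44 in 22Rv1. The 22Rv1 pairs thus lay below 0 and the other 4 above it. Over all 6 pairs the difference was 0.13 ± 0.13 (adjusted p = 0.406), and without 22Rv1 it was 0.46 with an adjusted p of 0.00709. These counts end at 54679030 and miss most of the last exon of the long GENCODE transcript (54678333 to 54680871). A listed intron row, chr12:54678102-54680445, lies mostly in that exon and held 602 input and 5214 PSF-RIP reads. It was higher by 1.02 ± 0.14 (adjusted p = 3.07e-05, edgeR) in 6 of 6 pairs, 22Rv1 included. It also spans the intron behind the stop codon and some counted exon bases.

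HNRNPC, which binds uridine tracts and keeps cryptic exons out of transcripts, ran from 164 to 248 CPM in input and from 159 to 265 in PSF-RIP. The assays overlapped almost fully, with pair differences from -0.04 to 0.19 and a fitted difference of 0.11 ± 0.08 (adjusted p = 0.233). HNRNPH1, which binds G tracts, had 149, 210.3 and 243 CPM as its lowest, median and highest input and 259.8, 323 and 421 in PSF-RIP. Every PSF-RIP library stood above every input, a difference of 0.70 ± 0.10 or 1.63-fold (adjusted p = 2.32e-06).

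HNRNPD (AUF1) and HNRNPDL bind AU-rich elements and act in RNA turnover. HNRNPDL had 77.9, 107 and 138 CPM as its lowest, median and highest input and 121, 191 and 268 in PSF-RIP. Its difference of 0.84 ± 0.11, or 1.78-fold, was the highest among the members (adjusted p = 1.23e-06), ranked 1262 from the highest of the 13368 genes, and lay between 0.63 and 0.97 in the 6 pairs. HNRNPD differed by 0.42 ± 0.12 (adjusted p = 0.00504), with 0.67, 0.66, 0.49 and 0.81 in LNCaP and LTAD but -0.14 and 0.10 in 22Rv1. Its call was lost without LNCaP (0.30, adjusted p = 0.0789) and without LTAD (0.30, adjusted p = 0.0620).

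HNRNPK, a KH-domain protein that binds cytosine-rich RNA, was higher in PSF-RIP by 0.59 ± 0.10 (adjusted p = 5.42e-05). HNRNPM, a splicing regulator, was higher by 0.63 ± 0.09 (adjusted p = 8.60e-06) and HNRNPU, also called scaffold attachment factor A, by 0.58 ± 0.08 (adjusted p = 7.16e-06). All 3 were higher in 6 of 6 pairs. HNRNPU had 208, 295 and 334 CPM as its lowest, median and highest input and 388, 408 and 483 in PSF-RIP, so that, as for HNRNPH1, the assays did not overlap.

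The individual RefSeq rows followed their genes. Of 36 transcript rows, 29 were higher in PSF-RIP and none was lower; over all 35918 rows, 57.4% passed, 29.8% higher and 27.6% lower. The rows that did not pass were the 3 of HNRNPA1 and the 4 of HNRNPC. Rows of 1 gene share most of their exons and are not independent; the widest spread between rows was in HNRNPA3, from 0.65 to 0.94, and in HNRNPA1, from 0.12 to 0.41.

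Of 18 other hnRNP genes, 11 were higher and 3 lower in exonic reads, with a median of 0.33. RALY, a relative of HNRNPC, was highest among them at 0.64 (adjusted p = 7.91e-06, edgeR), followed by HNRNPLL at 0.53 (adjusted p = 0.00923). PTBP3, a polypyrimidine tract binding protein, was lowest at -1.22 (adjusted p = 9.16e-11), followed by PCBP2, a poly-C binding relative of HNRNPK, at -0.50 (adjusted p = 0.000133).

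Intronic reads, summed per gene over introns free of exon bases, were higher in PSF-RIP for 7 of the 10 genes, against 20% of 11171 genes that passed in either direction (12.1% higher, 7.98% lower). The members' median was 0.78, and the median of all genes was 0.09. HNRNPH1 led with 1.46 ± 0.16 (adjusted p = 2.25e-07, edgeR), from 22.8 to 65.1 intronic CPM in input and from 51.0 to 254 in PSF-RIP, and was higher in 6 of 6 pairs. HNRNPDL was higher by 1.12 ± 0.19, HNRNPD by 1.09 ± 0.16 and HNRNPA1 by 0.97 ± 0.19 (adjusted p = 0.000168, 1.92e-05 and 0.000699). These 3 were higher in 6 of 6 pairs, HNRNPA1 in the 22Rv1 pairs too (0.87 and 0.35), where its exonic difference was below 0. The HNRNPA1 sum includes the interval chr12:54680517-54680736, with 12 input and 96 PSF-RIP reads. That interval lies inside the last exon of the long GENCODE transcript, so exon reads may enter the intronic sum and the ratio of HNRNPA1.

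HNRNPA2B1 was higher in introns by 0.85 (adjusted p = 0.00274, edgeR), HNRNPK by 0.72 (adjusted p = 0.00547) and HNRNPU by 0.52 (adjusted p = 0.0497). These 3 calls depended on single lines. Without LTAD the adjusted p of HNRNPA2B1 was 0.0930 and that of HNRNPU 0.193, and without LNCaP that of HNRNPK was 0.0579 and that of HNRNPU 0.441. HNRNPU also lost its call in DESeq2 (adjusted p = 0.0725) and without a filter on low counts (adjusted p = 0.0542). HNRNPA3 (0.33), HNRNPM (-0.10) and HNRNPC (-0.29) did not pass. Of 16 other hnRNP genes tested, 4 were higher and 1 lower, with a median of 0.14; HNRNPH3, a paralogue of HNRNPH1, was higher by 1.23 and RBMX by 1.04, and PTBP3 was lower (-0.87).

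**Figure D2:**
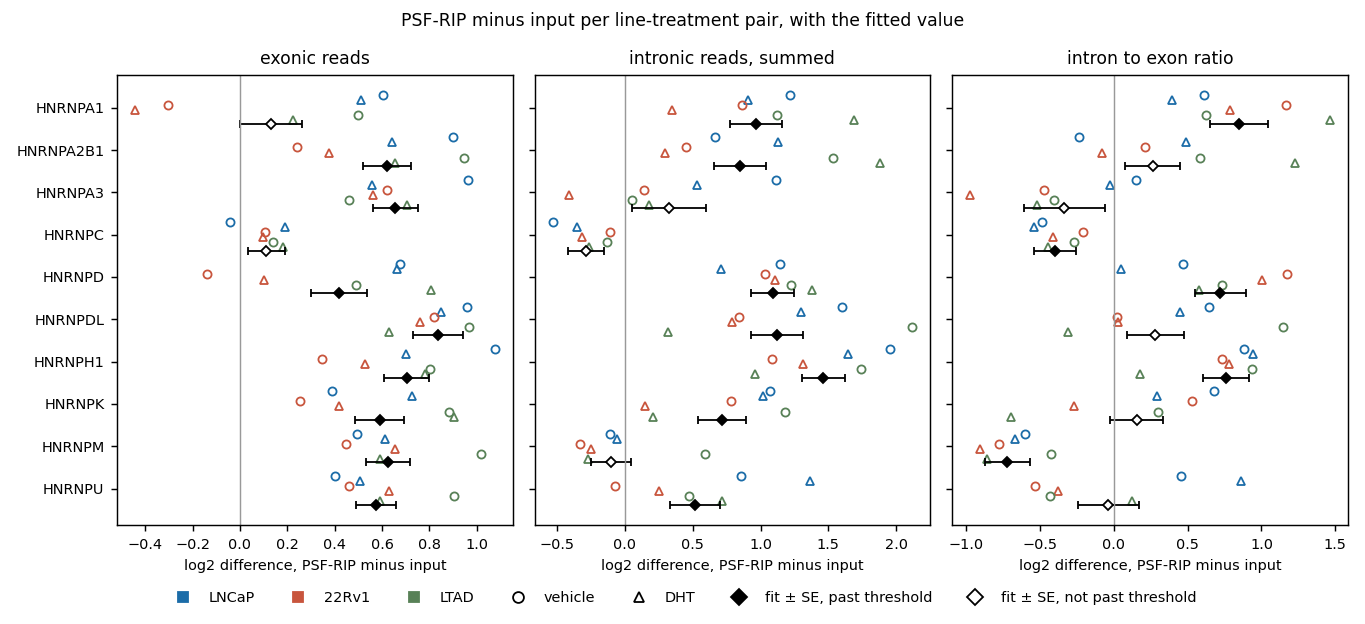
Log2 difference of PSF-RIP minus input for each gene in exonic reads, summed intronic reads and the intron to exon ratio; points are the 6 pairs, coloured by line, and the black mark with its bar is the fitted value ± SE, filled where the adjusted p is under 0.05. HNRNPH1 is high in exonic and intronic reads, and HNRNPC and HNRNPM lie below 0 in the ratio in 6 of 6 pairs.

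The ratio of intronic to exonic reads asks whether introns moved more than the exons of the same gene. In PSF-RIP against input, 37.9% of 10554 genes passed (20.8% higher, 17.1% lower), and 5 members did. It was higher for HNRNPA1 by 0.85 ± 0.20 (adjusted p = 0.000692, edgeR), for HNRNPH1 by 0.76 ± 0.16 (adjusted p = 0.000172) and for HNRNPD by 0.72 ± 0.18 (adjusted p = 0.00116), each in 6 of 6 pairs. HNRNPD lost this call without 22Rv1 (0.43, adjusted p = 0.121). The ratio was lower for HNRNPM (-0.72 ± 0.15, adjusted p = 0.000235) and HNRNPC (-0.40 ± 0.14, adjusted p = 0.0234), each in 6 of 6 pairs. HNRNPC lost its call without LNCaP (adjusted p = 0.103) and without LTAD (adjusted p = 0.0971). HNRNPA2B1 did not pass, but 48 of its 92 intronic reads in the LNCaP vehicle input came from a 75-bp intron (chr7:26236102-26236176) with 0 to 2 reads in each other library. Without introns that take most of their reads from 1 library, its ratio was higher by 0.47 (adjusted p = 0.0347). HNRNPC had the highest median intronic share of the members in input, 35.1% with a range of 26.5% to 51.9%, whereas HNRNPU had 2.93% to 9.72%.

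At the level of single introns, 36 of the 110 exon-free introns had enough reads to test, and 14 were higher and 3 lower in PSF-RIP. An intron can reach that minimum through PSF-RIP alone, so these counts describe the tested introns only. Over all 16456 exon-free introns, 15.6% were higher and 8.93% lower; over all 29357 tested intron rows, including those that overlap exons, 24.3% passed, 15.1% higher and 9.16% lower. The members' median was 0.67 and that of all exon-free introns 0.21. HNRNPH1 had the most, with 4 of 5 tested introns higher.

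The intron behind the HNRNPA1 stop codon (chr12:54678102-54678332, 231 bp) held 10, 10, 9, 5, 2 and 0 reads in the inputs (LNCaP, 22Rv1 and LTAD, vehicle then DHT) and 130, 71, 115, 61, 58 and 65 in PSF-RIP. PSF-RIP libraries are deeper, and with depth taken into account the difference was 1.71 ± 0.28 (adjusted p = 0.000133, edgeR), higher in 6 of 6 pairs. The HNRNPA2B1 counterpart (chr7:26231959-26232114, 156 bp) held 14, 7, 4, 8, 2 and 0 reads in the same order of inputs and 167, 79, 107, 71, 87 and 75 in PSF-RIP, a difference of 1.97 ± 0.31 (adjusted p = 8.50e-05). The HNRNPA3 intron (chr2:178084043-178084135, 93 bp) rested on only 6 reads over all inputs and 115 in PSF-RIP. Its difference was 2.06 ± 0.52 (adjusted p = 0.00654), and without LNCaP it was 1.64 with an adjusted p of 0.159.

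The HNRNPD intron (chr4:83275308-83276456, 1149 bp) held 2, 9, 8, 8, 0 and 5 reads in the inputs and 91, 57, 131, 67, 84 and 97 in PSF-RIP, a difference of 1.84 ± 0.31 (adjusted p = 0.000189, edgeR). In HNRNPDL the annotated 3′ UTR intron (chr4:83346037-83347189, 1153 bp) begins 22 bases after the stop codon and contains a 105-bp alternative exon. Its downstream portion (chr4:83346037-83346715, 679 bp) held 49 reads in the inputs and 653 in PSF-RIP and was higher by 1.62 ± 0.23 (adjusted p = 3.22e-05), and the upstream portion (chr4:83346821-83347189) by 1.10 ± 0.41, which did not pass (adjusted p = 0.0508). Input reads were thus few in each of these introns, so the direction is better determined than the size.

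Among all genes, 35 of 158 tested 3′ UTR introns (22.2%) were higher in PSF-RIP, against 11.2% of 1770 introns in 5′ UTRs and 15.9% of 12728 between coding exons. The members had 4 tested 3′ UTR introns matched to a coding transcript, those described above, and all were higher. That count is no support for a pattern, since an intron is tested only if it has enough reads: the HNRNPA3 one had at most 2 reads in any input and 8 to 32 in PSF-RIP, and that of HNRNPH1 was not tested. Their introns between coding exons were higher in 9 of 26 and lower in 3, and the 2 tested 5′ UTR introns, both of HNRNPC, did not pass.

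The HNRNPH1 intron with the highest value (chr5:179048399-179050037, 1639 bp) held 31, 14, 29, 19, 3 and 9 reads in the inputs and 471, 213, 325, 156, 165 and 153 in PSF-RIP, a difference of 1.70 ± 0.20 (adjusted p = 2.76e-06, edgeR). Its neighbours downstream, at chr5:179046409-179047892 and chr5:179045325-179046269, were higher by 1.63 and 1.48. The fourth, chr5:179043220-179043869, was higher by 1.37 with an adjusted p of 0.0339, a call lost without LNCaP and without LTAD.

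In the other members, HNRNPA2B1 had a second intron higher (chr7:26237487-26240191, 1.51, adjusted p = 7.81e-06, edgeR), on 118 input and 1377 PSF-RIP reads. HNRNPD had a second intron higher as well (chr4:83280793-83292680, 1.26, adjusted p = 0.000711). HNRNPK was higher in chr9:86590421-86591909 (1.26, adjusted p = 0.000212) and in chr9:86589505-86590376 (0.69, adjusted p = 0.0440, a call lost under 4 alternatives), and HNRNPU in chr1:245023777-245025762 (0.95, adjusted p = 0.00523; 0.0650 without LNCaP). HNRNPC was lower in 2 introns. The one at chr14:21699232-21702111 held 46 input reads and 57 in PSF-RIP, a difference of -1.92 ± 0.33 (adjusted p = 0.000284), and the one at chr14:21681277-21698477 was at -1.15 ± 0.25 (adjusted p = 0.00236), each lower in 6 of 6 pairs. The 29081-bp and 5961-bp introns in its 5′ UTR, with the most reads of its introns, were at -0.29 and -0.06 and did not pass. HNRNPM had 1 intron lower, chr19:8509996-8520288 at -0.81 ± 0.27 (adjusted p = 0.0347), a call lost without a filter on low counts, without 22Rv1 and without LTAD.

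The members' introns that were higher had a median GC content of 34.4%, a median length of 1047 bp and 65% pyrimidines in the last 30 bases. Those not called had 40.1%, 915 bp and 63.3%, and the 3 lower ones 39.6%, 10293 bp and 70%. Over all genes, the introns called higher had a median GC content of 43.2% and a median length of 3326 bp, against 42.3% and 7199 bp for those not called. The low GC content of the members' higher introns was thus not seen in the higher introns of all genes.

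Alternative exons were read from the deposited intron rows, as the reads of an exon-skipping intron less those of the introns beside the exon, and have no test. In HNRNPDL, the 171-bp coding exon at chr4:83347616-83347786 held 138 reads in the inputs and 1092 in PSF-RIP (0.72 on the log2 scale after depth, higher in 6 of 6 pairs). The 105-bp exon in its 3′ UTR intron (chr4:83346716-83346820) held 16 and 135 reads (0.81, 6 of 6 pairs). Both values lay close to the 0.84 of the gene's exons. The 72-bp alternative exon of HNRNPK (chr9:86588817-86588888) held 11 and 180 reads (1.76, 6 of 6 pairs), but 106 of the 180 came from the LTAD DHT library. The 147-bp exon of HNRNPD gave 0.70 (5 of 6 pairs), and the 156-bp exon of HNRNPA1 0.11 (3 of 6 pairs).

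Every one of the 10 loci held a CLIP peak in at least 1 of the LNCaP lists, although the lists differed widely. They hold 24242 peaks (vehicle, the list named Anti-PSF), 23580 (DHT, Anti-PSF), 7691 (vehicle, Anti-PSF-m) and 13546 (DHT, Anti-PSF-m). In that order, 9, 10, 3 and 6 of the 10 genes held a peak, against 44.7%, 43.1%, 11.8% and 27.6% of 13342 genes. Among the 7459 genes in the members' range of locus length, 6399 to 60343 bp, the shares were 41.7%, 39.8%, 7.28% and 21%. The members held 73 peaks over the 4 lists, or 1.46, 1.46, 0.152 and 0.606 per 10 kb against 0.296, 0.282, 0.0326 and 0.108 in the genes of that length range and 0.193, 0.184, 0.0252 and 0.0784 in all genes. The genes' expression was not matched in these shares. The peaks carry no strand, their scores are the authors', and no score in a list is below 50.

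**Figure D3:**
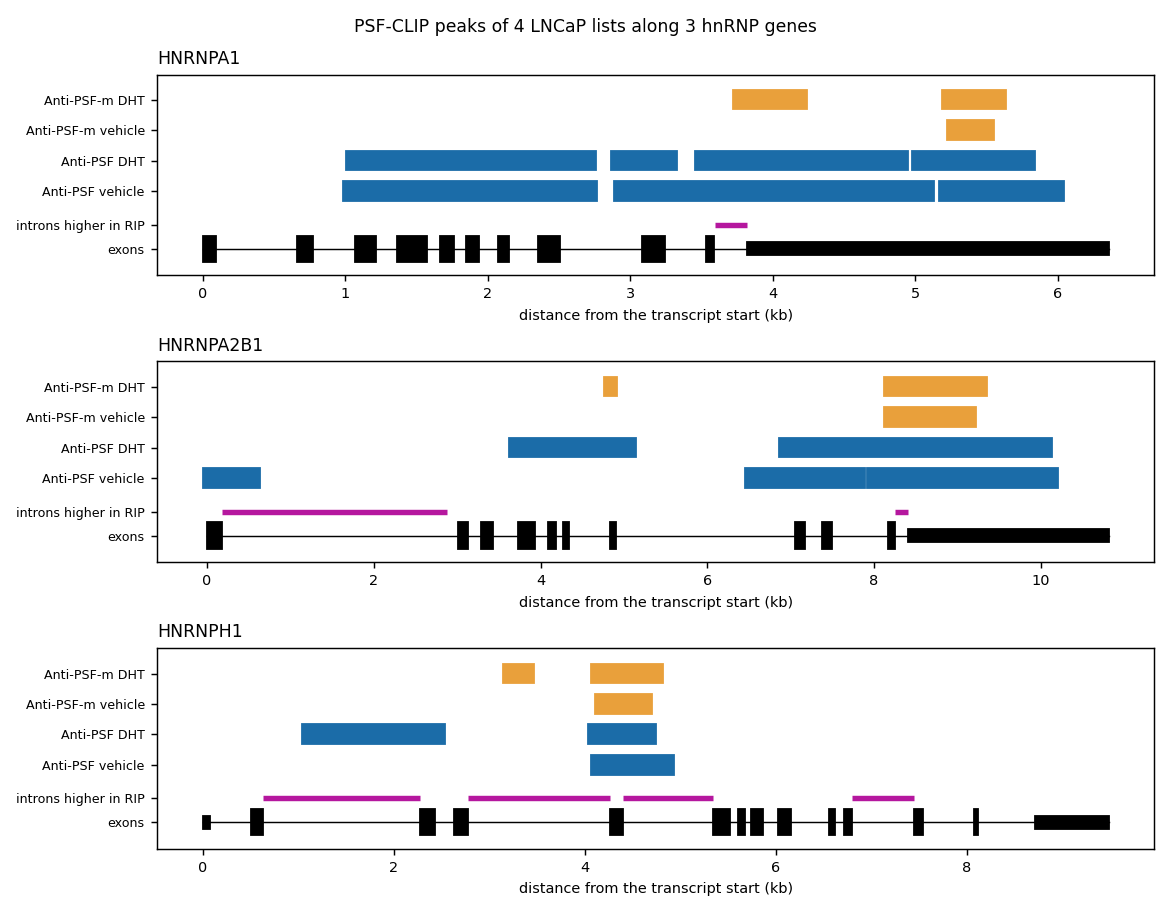
CLIP peaks of the 4 LNCaP lists along HNRNPA1, HNRNPA2B1 and HNRNPH1, against the distance from the transcript start in kb, above the exons and the introns that were higher in PSF-RIP. In each gene 1 interval is covered in all 4 lists; in HNRNPA2B1 it spans the 3′ UTR intron.

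An interval with peaks in all 4 lists was found in 3 genes. In HNRNPA1 it is chr12:54679734-54680066 (333 bp), in the 3′ UTR of the long GENCODE transcript and beyond the end of the gene's RefSeq mRNA rows at 54679030, so no read there counted toward the exonic level. In HNRNPA2B1 it is chr7:26231143-26232244 (1102 bp), which covers 62 coding bases, 837 bases of 3′ UTR and the whole intron behind the stop codon. In HNRNPH1 it is chr5:179045970-179046566 (597 bp), with the 139-base coding exon printed above and intronic bases on both sides. With a stricter requirement of 50% overlap only the HNRNPH1 interval was kept, and among the peaks above the median score only those of HNRNPA1 and HNRNPA2B1.

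The other 7 genes are described by their highest-scoring peak in the list with most peaks, Anti-PSF with vehicle, and scores of different lists are not comparable. HNRNPC had an intronic peak at chr14:21726790-21728160 (score 490.95, rank 614 of 24242), found in 3 of 4 lists. HNRNPA3 had its highest peak at chr2:178080228-178081004 (290.33), whereas in the Anti-PSF DHT list a different peak, chr2:178081176-178081738, scored highest (310.76). In HNRNPD (chr4:83294296-83295179, 256.61) and HNRNPU (chr1:245026617-245027843, 223.64) the peak lay at the 5′ end, and the highest peaks of the Anti-PSF DHT list overlapped them (chr4:83294522-83295346, 287.34, and chr1:245026692-245027831, 264.23). In HNRNPK it lay mostly in the 3′ UTR (chr9:86583432-86584439, 56.34), overlapped by the DHT peak at chr9:86583346-86584404 (73.33). The HNRNPDL peak at chr4:83347475-83347952 (86.13) overlaps its 171-bp alternative exon. HNRNPM had peaks in the Anti-PSF DHT list only, the highest at chr19:8538976-8539241 (90.41).

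RIP and CLIP met in only some introns. Of the 14 introns higher in PSF-RIP, 9 overlapped a peak in at least 1 list and 3 in all 4; of the 19 not called, 13 did in at least 1 list and 1 in all 4; of the 3 lower, 1 did. The 3′ UTR intron was overlapped in 4 lists in HNRNPA2B1, 3 in HNRNPA1, 2 in HNRNPA3 and none in HNRNPD. The downstream HNRNPDL portion was overlapped in none.

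DHT changed no member's exonic level by the test. In input, 0 of 10 passed against 0.624% of 13776 genes (0.436% higher, 0.189% lower), with 3 at an unadjusted p under 0.05 in edgeR. By the adjusted p of DESeq2, 0 passed as well. In PSF-RIP, 0 passed against 2.9% (1.5% higher, 1.39% lower), with 4 at an unadjusted p under 0.05. HNRNPC came closest, at 0.38 ± 0.10 (adjusted p = 0.0679, and 0.0133 by DESeq2), followed by HNRNPK at 0.40 ± 0.12 (adjusted p = 0.0951; 0.0379 without a filter on low counts) and HNRNPM at 0.37 ± 0.13 (adjusted p = 0.140). These 3 had values above 0 in 6 of 6 combinations of line and assay, from 0.14 to 0.41 for HNRNPC, 0.00 to 0.58 for HNRNPK and 0.04 to 0.79 for HNRNPM. Input and PSF-RIP of a line come from the same cells, so the 6 combinations are not independent, and the fit had no term for these pairs. HNRNPA1 had values from -0.36 to 0.00. Among the other hnRNP genes, HNRNPF rose in PSF-RIP (0.54, adjusted p = 0.0144).

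The DHT effect on PSF-RIP over input passed for 0 members and 0% of genes, with 0 members and 225 genes at an unadjusted p under 0.05 in edgeR. By the adjusted p of DESeq2, 0 members passed as well. The fitted values ran from -0.17 for HNRNPDL to 0.19 for HNRNPK. By a normal approximation, the 95% interval was -0.51 to 0.18 for HNRNPA1, -0.40 to 0.26 for HNRNPH1 and -0.17 to 0.55 for HNRNPK. Each spanned 0, and the approximation is narrower than the degrees of freedom of the test would give.

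The intron to exon ratio fell after DHT for 4 members: HNRNPA2B1 (-0.78 ± 0.18, adjusted p = 0.0272, edgeR), HNRNPK (-0.65 ± 0.17, adjusted p = 0.0390), HNRNPM (-0.65 ± 0.15, adjusted p = 0.0253) and HNRNPH1 (-0.57 ± 0.15, adjusted p = 0.0399). Over all 10554 genes 1.53% passed, 1.51% lower and 0.0284% higher. All genes had a median of -0.24, the members -0.39 and the 16 other hnRNP genes tested -0.39 with 0 past the threshold. For HNRNPA2B1 the difference in LNCaP, 22Rv1 and LTAD was -1.57, -0.26 and -1.27 in input and -0.85, -0.55 and -0.63 in PSF-RIP. For HNRNPM it was -0.55, -0.49 and -0.51 in input and -0.61, -0.62 and -0.94 in PSF-RIP. These were below 0 in 6 of 6 combinations, as were those of HNRNPC (-0.47, adjusted p = 0.0594), while HNRNPH1 was below 0 in 5 and HNRNPK in 4, with HNRNPK above 0 in the 22Rv1 and LTAD inputs (0.08 and 0.18). Input and PSF-RIP of a line and treatment come from the same cells and deviated together, so the 6 combinations rest on 3 lines and are not independent. The ratio fit had no term for these pairs, so its p-values treat the libraries as separate samples. The LNCaP input value of HNRNPA2B1 rests on the vehicle library, where 48 of 92 intronic reads came from the 75-bp intron named above, against 36 intronic reads with DHT; without introns of that kind the fitted difference was -0.63 and did not pass (adjusted p = 0.0536). None of the 4 passed without LNCaP or without LTAD, and DESeq2 called HNRNPM alone. The intronic share of whole libraries also fell after DHT (given above), and its part in this was not tested.

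**Figure D4:**
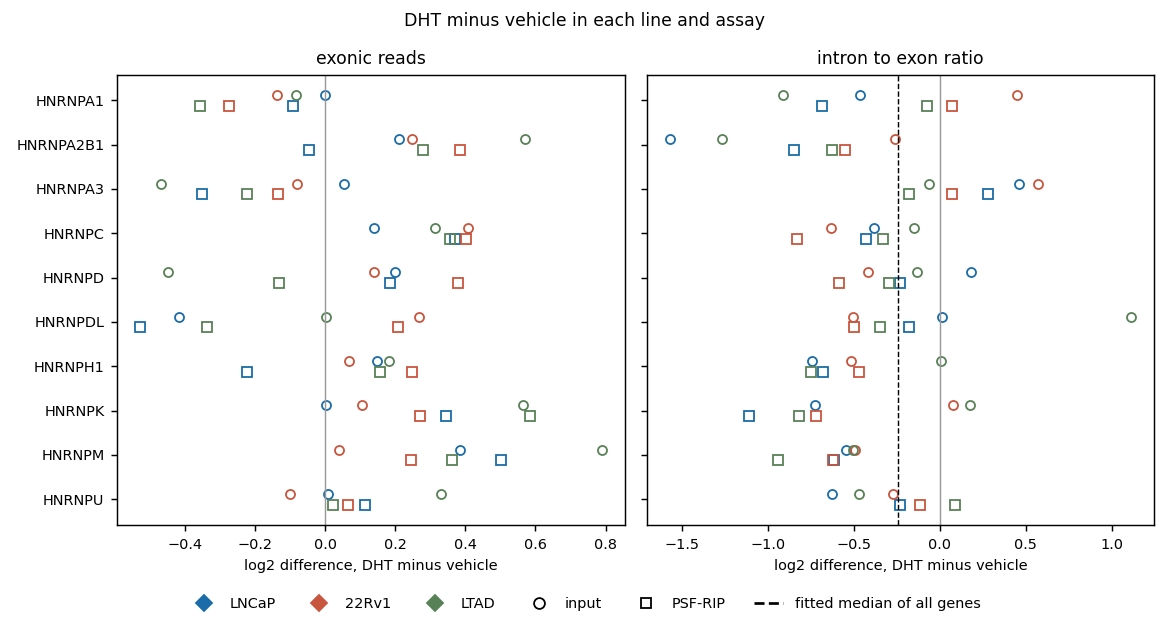
Log2 difference of DHT minus vehicle for each gene in exonic reads (left) and in the intron to exon ratio (right), with 1 point per line and assay. Exonic points lie on both sides of 0 for 7 of the genes, and the ratio of HNRNPA2B1, HNRNPC and HNRNPM is below 0 at all 6 points; the dashed line marks the median of all genes, -0.24.

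Between lines, the input levels of several members differed. The 3 comparisons share libraries and are not independent, and each rests on 2 inputs per line. Against LNCaP, 22Rv1 had 5 of 10 members past the threshold, against 49.9% of 13776 genes (26.6% higher, 23.4% lower). HNRNPA1 had 101 and 92.2 CPM in the 22Rv1 inputs (vehicle and DHT) and 47.8 and 47.8 in the LNCaP inputs, a difference of 1.02 ± 0.17 (adjusted p = 0.000343, edgeR). HNRNPD had 281 and 309 CPM in 22Rv1 and 147 and 169 in LNCaP (0.90, adjusted p = 0.00149). HNRNPA2B1 was higher by 0.60 (adjusted p = 0.00548), while HNRNPA3 (-0.79, adjusted p = 0.00341) and HNRNPK (-0.64, adjusted p = 0.00719) were lower. HNRNPA3 had 43.9 and 41.6 CPM in 22Rv1 and 72.5 and 75.4 in LNCaP. The calls of HNRNPA1 and HNRNPD held whichever input was left out. HNRNPA2B1 lost its call without the LNCaP DHT or the 22Rv1 vehicle input, HNRNPA3 without the LNCaP DHT input, and HNRNPK without the LNCaP vehicle or the 22Rv1 DHT input.

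Against 22Rv1, LTAD had 7 members past the threshold, against 48.5% of genes (22.2% higher, 26.3% lower). HNRNPA1 had 46.7 and 44.1 CPM in the LTAD inputs (-1.09, adjusted p = 0.000266, edgeR). HNRNPA2B1 (-0.88, adjusted p = 0.000526), HNRNPD (-0.87, adjusted p = 0.00202), HNRNPDL (-0.64, adjusted p = 0.0317), HNRNPH1 (-0.58, adjusted p = 0.00790) and HNRNPU (-0.46, adjusted p = 0.0193) were also lower, and HNRNPA3 was higher (0.56, adjusted p = 0.0284, and 0.0842 by DESeq2). The calls of HNRNPA1 and HNRNPA2B1 held whichever input was left out. The call of HNRNPD was lost without the LTAD DHT input, that of HNRNPU without the LTAD vehicle or the 22Rv1 vehicle input, and those of HNRNPDL, HNRNPH1 and HNRNPA3 when any 1 of 3 of the 4 inputs was left out. LTAD against LNCaP gave 0 members, against 8.22% of genes (2.93% higher, 5.28% lower), with 3 members at an unadjusted p under 0.05; HNRNPDL came closest at -0.62 (adjusted p = 0.119), and 0 passed by DESeq2. The neuroendocrine marker sum, higher in 22Rv1 as given above, moves with the 22Rv1 comparisons, and its part was not tested.

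The PSF-RIP over input difference between lines asks whether binding relative to abundance varied. No gene passed in any of the 3 comparisons without a pair term (0% in each), with 4 members at an unadjusted p under 0.05 for 22Rv1 against LNCaP, 0 for LTAD against LNCaP and 4 for LTAD against 22Rv1 (edgeR); DESeq2 called 7, 0 and 6 genes. Fitted with the 6 line-treatment pairs as a block, which leaves 2 residual degrees of freedom, 4 members were lower in 22Rv1 than in LNCaP: HNRNPA1 at -0.94 ± 0.20 (adjusted p = 0.000608), HNRNPD at -0.68 ± 0.14 (adjusted p = 0.000340), HNRNPA2B1 at -0.46 (adjusted p = 0.0318) and HNRNPH1 at -0.45 (adjusted p = 0.0411). Without the block HNRNPA1 was at -0.93 ± 0.21 with an adjusted p of 0.638. In the same block fit, 4 were higher in LTAD than in 22Rv1: HNRNPA1 at 0.73 (adjusted p = 0.0214), HNRNPD at 0.67 (adjusted p = 0.000525), HNRNPK at 0.53 (adjusted p = 0.00722) and HNRNPA2B1 at 0.48 (adjusted p = 0.0231). The block fit called 413, 275 and 424 genes in the 3 comparisons. Its p-values match a normal distribution of difference over SE, so they rest on spread pooled across genes, not on each gene's own. HNRNPA1, HNRNPD and HNRNPA2B1 are also the genes whose input level was higher in 22Rv1, and the same inputs enter both values, so the 2 results are not independent.

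Over the 12 libraries, the genes whose exonic level moved most like the mean of the 10 members were CSTF3, a cleavage stimulation factor subunit of 3′ end processing (r = 0.980), DDX39B, an RNA helicase of splicing and export (0.975), ATP6V1G2-DDX39B, a read-through that shares exons with it (0.974), DICER1, the microRNA-processing enzyme (0.962), and ZC3H11A, a zinc-finger protein (0.953). Among the members themselves HNRNPH1 (0.956), HNRNPU (0.926) and HNRNPA2B1 (0.895) were closest to that mean, and HNRNPA3 (0.494), HNRNPA1 (0.463) and HNRNPC (0.350) farthest. These correlations describe libraries that share an assay and a line, and the members enter the mean they are compared with.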

How the data were processed

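The authors deposited whole-number counts of unique reads for each RefSeq transcript and intron (hg19), per the file headers; TopHat2 2.1.0, Bowtie2 2.2.6 and Bowtie are named in the submitters' processing notes. Deposited CLIP peak lists give a score per peak; settings of the caller: not given in the sources used here. The members and gene lists were chosen with earlier results of these data known. Each gene's exonic count and the summed counts of its introns free of exon bases were tested across all genes with edgeR 4.0.16 (quasi-likelihood, R 4.3.3, minimum count 10, Benjamini-Hochberg adjustment, two-sided), with SE taken as the fold change over the root of F. A prior count of 2 entered only the log2 differences between single libraries, such as those of the pairs, and not the fitted values. The intron to exon ratio was the edgeR interaction of read class and assay or treatment, with each library as a term. Alternatives were DESeq2 1.42.0, no filter, leaving out lines or libraries, and a replicate block. Same-line, same-treatment libraries deviated together (correlation 0.799 to 0.942, own pair best in 6 of 6). All 10 members are named; of other hnRNP genes, the 2 highest and lowest past the threshold; per member the highest and lowest called introns; peaks in all 4 lists or else the highest-scoring. Near-copies were found with minimap2 2.31. A second LNCaP set of 4 samples with contradictory labels (12 columns) and 2 CLIP inputs were not used here.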

Additional observations from a re-analysis of the deposited data

Results flagged for a closer look

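In 3 of 30 sets of 6 pairs checked, 1 pair stood far from the others by Dixon's criterion, which chance meets in about 1 of 20 sets. HNRNPH1 had an intron to exon ratio difference (PSF-RIP minus input) of 0.18 in LTAD with DHT, against 0.73 to 0.94 in the other 5 pairs. HNRNPM had an exonic difference of 1.02 in LTAD with vehicle, against 0.45 to 0.65 elsewhere. HNRNPM also had an intronic difference of 0.59 in that pair, against -0.33 to -0.06 elsewhere. The LTAD vehicle input was the shallowest library.

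HNRNPA1 differed between lines in exonic PSF-RIP over input: both 22Rv1 pairs lay below 0 and all pairs of LNCaP and LTAD above it. The exonic count ends at 54679030, and the interval chr12:54678102-54680445, which reaches further, was higher in PSF-RIP in 6 of 6 pairs. The exonic difference was -0.93 for 22Rv1 minus LNCaP and 0.74 for LTAD minus 22Rv1. These comparisons share the 22Rv1 libraries, and their adjusted p was 0.638 and 0.729 in edgeR without the pairs as a block and 0.000608 and 0.0214 with it. The block values rest on spread pooled across genes, not on that of HNRNPA1 itself.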

How the results depend on the processing

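Of 1180 single values recomputed under an alternative, 1106 stayed on the same side of the threshold, 55 lost it and 19 gained it. No called value changed sign, and 69 values called in neither setting did. The inputs, with 1073228 to 3014049 mapped reads, limit the single-intron results, several of which rest on few input reads. Members past the threshold for PSF-RIP against input numbered 7 to 9 in exonic reads (8 reported), 5 to 7 in intronic reads (7 reported) and 4 to 7 in the ratio (5 reported). For DHT in PSF-RIP, DESeq2 called 1 member and no filter on low counts 1, against 0. For LTAD against LNCaP in input, no filter called 1, against 0. For DHT on the ratio, DESeq2 called 1, against 4, and leaving out a line gave 0 to 3. Leaving out 1 library gave 3 to 5 members for 22Rv1 against LNCaP and 4 to 7 for LTAD against 22Rv1. Each input left out lowered the count, to 3 or 4 from 5 and to 4 or 5 from 7, and no PSF-RIP library did. Requiring 50% overlap left 1 interval shared by all CLIP lists, against 3. With the line-treatment pairs as a replicate block, PSF-RIP over input gave 4 members for 22Rv1 against LNCaP and 4 for LTAD against 22Rv1, against 0 and 0. These block calls rest on spread pooled across genes. The block changed no call of a member in exonic or intronic reads against input or in DHT over input, and called 19 single introns against 17.

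Counts over all features that moved by over 1.5 times were as follows. Without LTAD, genes called in intronic reads fell from 2239 to 1119 and single introns from 7134 to 3908. For DHT in input, 86 genes became 143 in DESeq2, 397 without a filter, 24 without 22Rv1 and 53 without LTAD. For DHT in PSF-RIP, 399 became 948 without a filter, 94 without 22Rv1 and 171 without LTAD. For DHT on the ratio, 162 became 6 in DESeq2, 296 without a filter, 32 without LNCaP, 5 without LTAD and 99 with overlapping introns all summed, an alternative chosen after seeing the data, as was leaving out introns with most reads in 1 library. That second alternative left HNRNPA2B1 at an adjusted p of 0.0536 in the DHT ratio (edgeR). For 22Rv1 against LNCaP in input, 6877 became 4516 without the LNCaP vehicle input. For LTAD against 22Rv1, 6685 became 4301 without the LTAD DHT input and 4428 without the 22Rv1 DHT input. For LTAD against LNCaP, 1132 became 285 to 434 when any 1 of its 4 inputs was left out. For PSF-RIP over input between lines, 0 genes became 7, 0 and 6 in DESeq2, 13, 5 and 19 without a filter and 413, 275 and 424 with the block, and for DHT over input 0 became 7 with the block.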
